A study of Mus musculus with 8 samples.

Results

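The genes of the TGF-beta, activin and BMP pathway were examined in the gravid mouse uterus on day (d) 18.0 of gestation, in wild-type mice and in mice lacking cyclooxygenase-1 (Cox-1 KO). The members were 44 genes picked by name for their place in the pathway. They are ligands, proteins that process or store ligands, antagonists, receptors, Smad proteins and Id target genes. The probe sets analysed held 38 of the 44, out of 13120 genes in all, through 78 of 28000 probe sets. Bmp5, Bmp7, Gdf15, Inha, Grem1 and Nog were not analysed here. Each gene was given 1 value, that of its brightest probe set (the one with the highest mean signal over the arrays), and all 38 passed the filter on low signals, which asked for 100 signal units on 4 arrays or more.

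Cox-1, encoded by Ptgs1, makes the prostaglandin precursor that leads to luteolysis at term, and mice without it deliver late. The study compared 4 wild-type uteri with 4 Cox-1 KO uteri, 1 mouse per Affymetrix mouse 430 2.0 array, to find genes with altered expression before a delayed labor. The labels give all mice as females of 6 to 16 weeks, the wild-type mice as C57BL/6 and the Cox-1 KO mice as C57BL/6 x Sv129, while the methods name the second strain as 129P2 and give a narrower age range. Genotype and strain background changed together, so their effects cannot be told apart. The uterus was taken without fetuses, membranes and placentas, and its RNA came from all of its cell types. In such RNA, fewer cells of a type and less RNA per cell cannot be told apart.

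Ligands of this family are secreted as dimers, often in a latent form held in the matrix. A ligand brings type II and type I receptor kinases together, and the type I receptor then phosphorylates receptor Smads, Smad2 and Smad3 for TGF-beta and activin, Smad1 and Smad5 for BMP, which enter the nucleus with Smad4. In the uterus the pathway is known for decidualization, implantation and the remodelling of matrix and vessels.

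Ptgs1 had signals of 7048, 10610, 10756 and 10508 in wild-type uterus and 88, 122, 76 and 136 in Cox-1 KO uterus, with a log2 fold change of -6.55 (adjusted p 5.66e-08 in limma). All 6 stromal, 6 smooth muscle and 6 epithelial markers of the uterus were measured. Each reached 100 signal units on all 8 arrays except epithelial Foxa2, which did so on 5. Median signals of the arrays lay between 731 and 757, and the array number limits the precision. The mean log2 signal of 11 yolk sac markers was 8.24, 8.13, 8.62 and 13.5 in wild-type replicates 1 to 4. In Cox-1 KO replicates 1 to 4 it was 14.3, 8.97, 13.9 and 13.7. Wild-type replicate 4 and Cox-1 KO replicates 1, 3 and 4 thus stood apart. Afp, a marker in this list, had signals of 1357, 2107, 2368 and 66979 in wild-type uterus. In Cox-1 KO uterus its signals were 75030, 3292, 70005 and 71820. Rbp4, also in the list, had signals of 26827 or more on all 8 arrays and did not set those 4 apart. It was at 32401 on wild-type replicate 4 and 34145 on Cox-1 KO replicate 2. Whether yolk sac tissue was left in these samples was not tested. All 8 arrays were kept in every estimate unless said otherwise. Values without the 4 arrays high in yolk sac markers set 3 wild-type arrays against 1 Cox-1 KO array, replicate 2. High marker levels lay mostly on Cox-1 KO arrays, so the marker level and genotype overlap. A fit with the marker level as a covariate cannot fully separate them.

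None of the 38 members passed an adjusted p of 0.05 in limma, where the background was 0.0158% of 12663 genes and 0.0113% of 26444 probe sets. Adjusted p-values of the members ran from 0.526 to 0.992. At an unadjusted p under 0.05 there were 4 members, or 10.5%, against 9.22% of all genes, a share near the background. Without Cox-1 KO replicate 1 there were 2, and without Cox-1 KO replicate 4 there was 1. With the yolk sac marker level as a covariate there were 3, Bmp2, Tgfb2 and Tgfbi. Tgfbr1 and Id2 were the 2 higher in Cox-1 KO uterus, where the background in that direction was 4.84%, and Tgfb2 and Acvrl1 the 2 lower, against 4.37%. The methods' t-test put 3 members at p of 0.05 or less, Tgfbr1, Acvrl1 and Id2, and none of them also reached the 1.5-fold ratio that the methods ask for, a pair of limits met by 0.687% of all genes. The 4 arrays of one genotype all lay above those of the other for 3 members, or 7.89%, against 4.34% of all genes. The Cox-1 KO arrays were the upper ones for Tgfbr1 and Id2 (background 1.83%) and the lower ones for Acvrl1 (background 2.51%).

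Most members had nearly the same signal in both genotypes. The estimated log2 fold change (Cox-1 KO minus wild-type throughout) was above 0 for 18 members and below 0 for 20, with a median of -0.01 for the members and -0.01 for all genes. Its median size was 0.09 for the members and 0.09 for all genes. The 95% confidence interval lay wholly within 1.5-fold in either direction for 33 members (86.8%), against 78.5% of all genes. Bmp2, Inhba, Ltbp2, Acvr2b and Smad6 were the 5 whose interval reached a 1.5-fold difference. Ratios of mean signal ranged from 0.862 to 1.48, and the highest of the 8 arrays was less than 1.5 times the lowest for 28 members.

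Several small estimates differed between the fit to all 8 arrays and the fits that took the yolk sac markers into account. With the yolk sac marker level as a covariate, 8 of the 38 estimates changed side of 0, those of Bmp4, Gdf10, Inhbb, Ltbp2, Tgfbr3, Smad1, Smad5 and Id1, none of which passed the test in either fit. Without the 4 arrays, 13 did, those of Bmp4, Gdf10, Inhbb, Bmp1, Fst, Bmpr2, Tgfbr3, Eng, Smad1, Smad5, Smad6, Id1 and Id3. That fit holds only 1 Cox-1 KO array, so its values rest on 1 Cox-1 KO mouse. Inhba went from 0.12 to 0.32 with the covariate and 0.62 without the arrays, Gdf10 from -0.08 to 0.11 and 0.08, Id1 from 0.02 to -0.15 and -0.24, and Bmpr1a from -0.16 to -0.04 and -0.08. Tgfb2, Tgfbr1, Acvrl1 and Id2 kept their side of 0 in both.

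**Figure D1:**
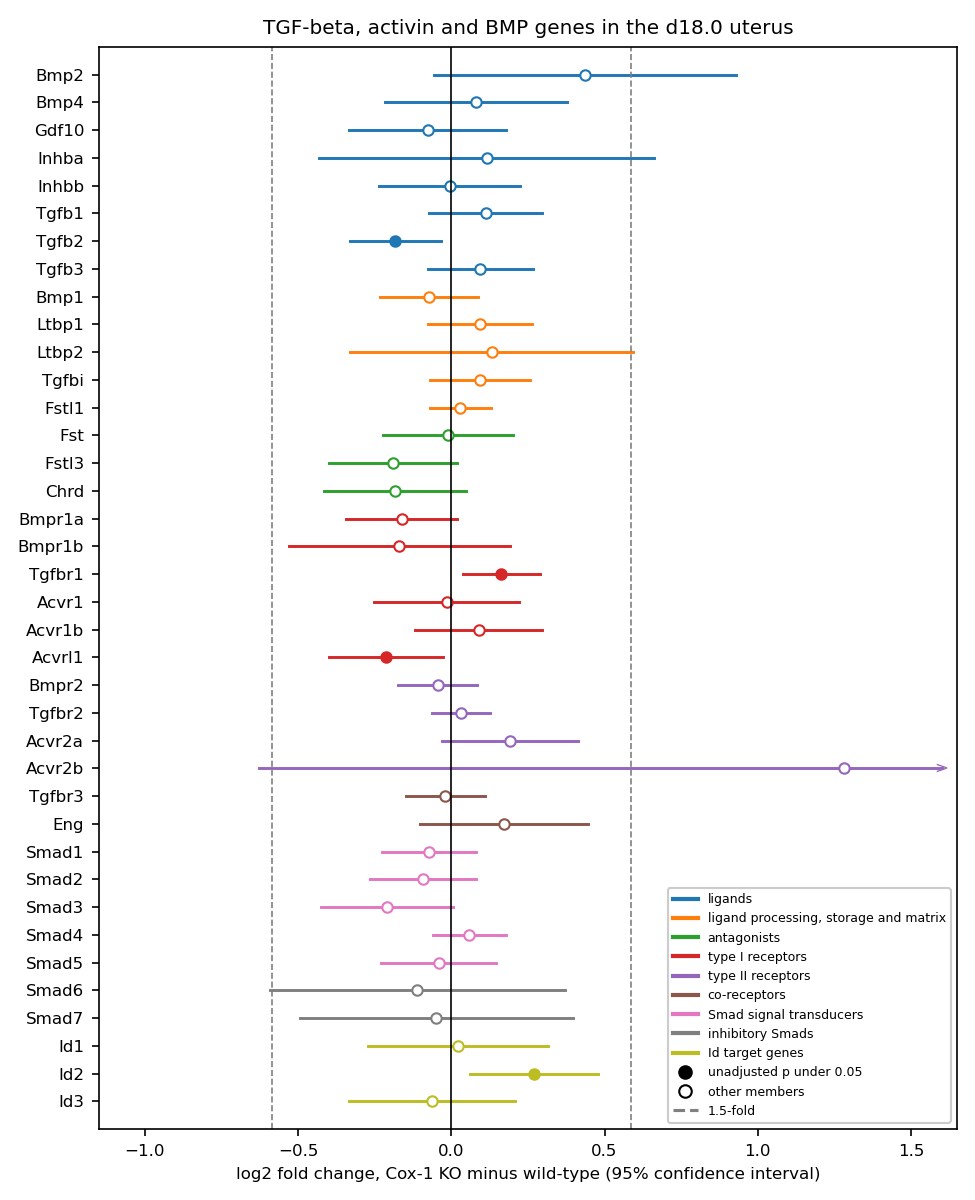
Log2 fold change of the 38 measured members, Cox-1 KO minus wild-type, with its 95% confidence interval from limma, coloured by role, with dashed lines at 1.5-fold; an arrow marks an interval that runs off the axis. The filled points are Tgfb2, Tgfbr1, Acvrl1 and Id2, the 4 members at an unadjusted p under 0.05, and all 4 lie inside the dashed lines.

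The ligands included all 3 TGF-betas, both activin beta subunits and the BMPs Bmp2, Bmp4 and Gdf10. Of the 8 measured, 5 had a fold change above 0 and 3 below, with a median of 0.09, and 1, Tgfb2, had an unadjusted p under 0.05. Tgfb2, 1 of the 3 mammalian TGF-beta isoforms, had signals of 22816, 19904, 21171 and 22213 in wild-type uterus. In Cox-1 KO uterus they were 17626, 19175, 21300 and 17913. Cox-1 KO replicate 3 lay within the wild-type range and the other 3 below it. Wild-type arrays averaged 21526 ± 1277 and Cox-1 KO arrays 19004 ± 1672 (SD, n = 4 each). The log2 fold change was -0.18 (SE 0.07, 95% confidence interval -0.33 to -0.03), with an unadjusted p of 0.0215 and an adjusted p of 0.531 in limma.

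The other 3 probe sets of Tgfb2 were also lower in Cox-1 KO uterus, and on each of them the 4 Cox-1 KO arrays all lay below the 4 wild-type arrays, as they did on 2.91% of all probe sets; these probe sets are described because their values were seen. On 1450923_at the wild-type signals were 15685, 14591, 14461 and 15530, and the Cox-1 KO signals were 11107, 12747, 12764 and 11273. The log2 fold change there was -0.33 (SE 0.06, unadjusted p 0.000216, adjusted p 0.154 in limma), and the adjusted p ran from 0.0882 to 0.433 as each array was left out. On 1423250_a_at it was -0.25 and on 1438303_at -0.36, with adjusted p-values of 0.423 and 0.526. The 4 probe sets detect the same gene, so they are not independent measurements. Without the 4 arrays high in yolk sac markers the values were -0.15, -0.23, -0.25 and -0.34 for 1450922_a_at (the brightest), 1450923_at, 1423250_a_at and 1438303_at.

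Marker lists of stroma, smooth muscle and epithelium were set beside these values. The summed signal of 6 smooth muscle markers was 211791 to 240152 in wild-type and 220262 to 239618 in Cox-1 KO uterus. Of these markers 4 were lower and 2 higher, and 1, Smtn, was at an unadjusted p under 0.05 (0.211 with the yolk sac covariate). The summed signal of 6 stromal markers was 44666 to 50188 in wild-type and 39290 to 45716 in Cox-1 KO uterus, with 5 of 6 lower and 2 of them, Esr1 and Nr2f2, at an unadjusted p under 0.05 (0.305 and 0.0842 with the yolk sac covariate). The summed signal of 6 epithelial markers was 79203 to 100682 in wild-type and 98068 to 118632 in Cox-1 KO uterus, with all 6 higher and 1, Krt18, at an unadjusted p under 0.05 (0.248 with the covariate, where Foxa2 turned from 1.02 to -0.36 on the log2 scale). The part of these markers in the Tgfb2 values was not tested.

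**Figure D2:**
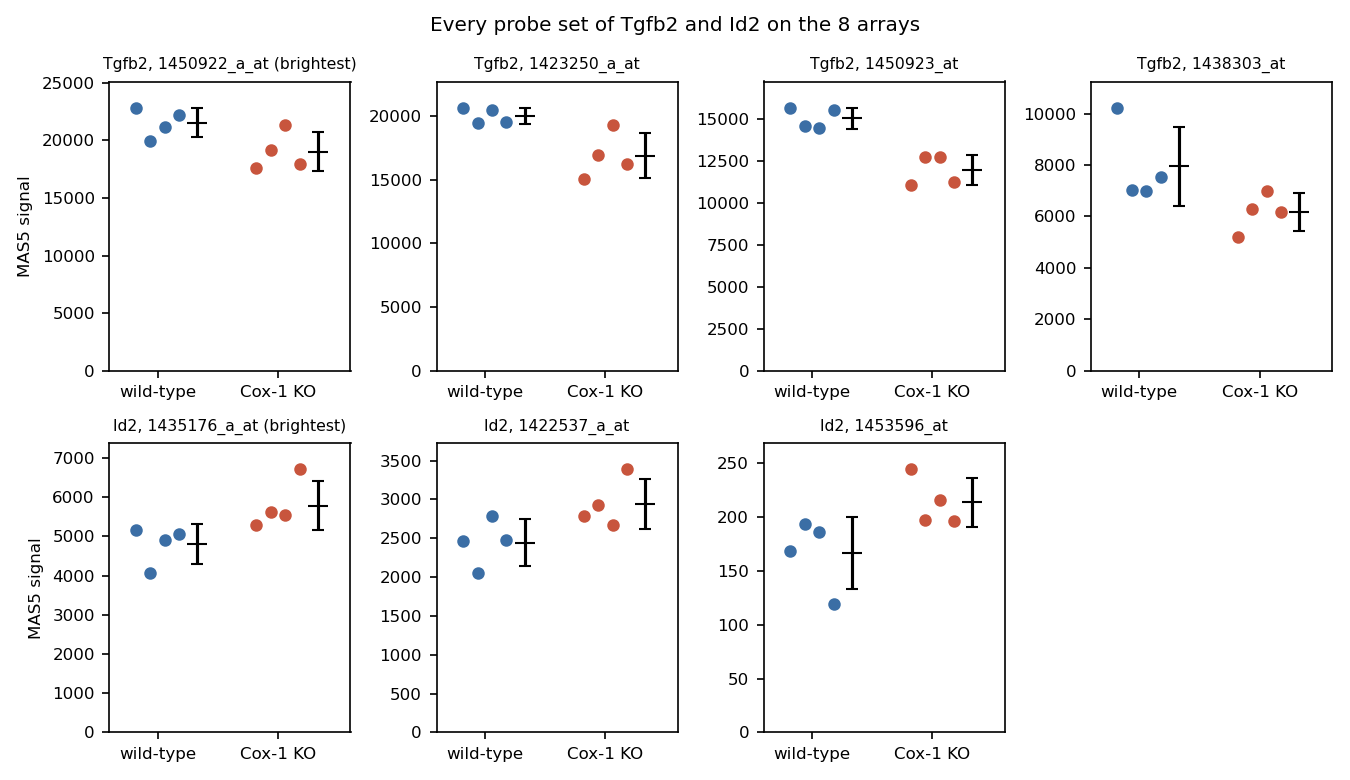
MAS5 signal of every probe set of Tgfb2 (top) and Id2 (bottom) on each array, with points for arrays and bars for the mean and SD of 4 arrays. On 3 of the 4 Tgfb2 probe sets all Cox-1 KO arrays lie below the wild-type arrays, and on 2 of the 3 Id2 probe sets all lie above them.

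Upstream sequences are shown for Tgfb2, the 1 member with every probe set at an unadjusted p under 0.05, and for Id2, Id3 and Id4, of a gene family known as direct targets of BMP signals; the estimates of Id2 and Id4 lay on opposite sides of 0. They are the 250 bases before the start of the gene in RefSeq, build GRCm38.p6, written 5′ to 3′ on the strand of the gene, and 32 of the 44 members had an entry. Capitals mark CAGAC (or GTCTG on the opposite strand), a core that Smad3 and Smad4 bind, GGCGCC, a core of BMP response elements, and TATAAA, the TATA box; TGACGTCA, the cyclic AMP response element, was also searched. All were searched on both strands, and they do not overlap in these windows.

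Tgfb2 (chr1:186705990-186706239, minus strand): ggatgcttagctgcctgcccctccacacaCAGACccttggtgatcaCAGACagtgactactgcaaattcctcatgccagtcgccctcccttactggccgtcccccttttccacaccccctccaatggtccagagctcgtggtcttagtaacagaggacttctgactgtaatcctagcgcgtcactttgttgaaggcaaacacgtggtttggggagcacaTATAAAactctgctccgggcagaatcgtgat
Id2 (chr12:25096093-25096342, minus strand): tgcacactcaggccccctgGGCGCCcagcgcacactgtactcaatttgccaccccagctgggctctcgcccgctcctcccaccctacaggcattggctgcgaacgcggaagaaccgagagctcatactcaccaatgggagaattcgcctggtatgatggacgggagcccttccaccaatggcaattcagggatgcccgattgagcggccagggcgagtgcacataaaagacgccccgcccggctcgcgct
Id3 (chr4:136143572-136143821, plus strand): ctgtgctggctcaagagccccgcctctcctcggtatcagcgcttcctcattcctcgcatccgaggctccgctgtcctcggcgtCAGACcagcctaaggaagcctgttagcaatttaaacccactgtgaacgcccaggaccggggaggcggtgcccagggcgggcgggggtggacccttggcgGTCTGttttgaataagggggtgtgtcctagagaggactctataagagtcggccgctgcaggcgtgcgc
Id4 (chr13:48260866-48261115, plus strand): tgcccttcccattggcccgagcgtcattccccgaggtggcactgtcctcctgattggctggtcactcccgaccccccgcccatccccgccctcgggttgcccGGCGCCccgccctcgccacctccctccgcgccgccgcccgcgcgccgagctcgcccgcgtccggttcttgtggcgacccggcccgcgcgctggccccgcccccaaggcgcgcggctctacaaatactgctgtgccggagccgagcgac

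The Tgfb2 window held TATAAA, beginning 31 bases before the start, and CAGAC at 221 and 204 bases before it. The Id2 window held GGCGCC at 231 bases and the Id4 window at 148 bases, while the Id3 window held CAGAC at 167 bases and GTCTG at 68 bases. TGACGTCA was in none of the 4 windows. Of 32851 mouse promoters of this length, 42.2% held CAGAC or its complement, 9.59% GGCGCC, 12.4% TATAAA or its complement and 1.55% TGACGTCA. These matches describe letters only.

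Tgfb1 and Tgfb3, the other TGF-betas, had estimates on the opposite side of 0 from Tgfb2. Tgfb1 had signals of 1290 to 1524 in wild-type and 1451 to 1625 in Cox-1 KO uterus, a log2 fold change of 0.11 (95% confidence interval -0.07 to 0.30). Tgfb3 had signals of 1712 to 2030 in wild-type and 1868 to 2090 in Cox-1 KO uterus, a log2 fold change of 0.09 (-0.08 to 0.27). The genotypes overlapped for both.

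The activin subunits varied more between mice than between genotypes. Inhba, the beta A subunit, had signals of 650, 1348, 1423 and 1048 in wild-type and 1002, 1652, 895 and 1215 in Cox-1 KO uterus, so that the lowest and the second highest array were both wild-type. Its log2 fold change was 0.12 (95% confidence interval -0.43 to 0.66), which leaves a 1.5-fold difference in the upper direction within reach. Inhbb, the beta B subunit, had signals of 7871, 9275, 11056 and 9100 in wild-type and 9692, 10177, 7898 and 9293 in Cox-1 KO uterus. Its estimate was a log2 fold change of -0.01 (-0.23 to 0.22), and the genotypes overlapped.

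Among the BMPs, Bmp2, a ligand needed for decidualization, had signals of 274, 208, 351 and 167 in wild-type and 300, 329, 302 and 376 in Cox-1 KO uterus. Wild-type replicate 3 lay within the Cox-1 KO range and the other 3 below it. The log2 fold change of Bmp2 was 0.44 (SE 0.22, interval -0.05 to 0.93, unadjusted p 0.0765), and with the yolk sac marker level as a covariate it was 0.65 (unadjusted p 0.027). The decidual markers Wnt4, Prl8a2 and Cryab had log2 fold changes of 0.46, 0.41 and -0.01. Their part in the Bmp2 values was not tested. Bmp4 had a log2 fold change of 0.08, with signals of 637 to 953 over the 8 arrays. Gdf10, a BMP-like ligand, had one of -0.08, with signals of 2106 to 3085.

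The 5 genes of ligand processing, storage and matrix had fold changes between -0.07 and 0.13, 4 above 0 and 1 below, with none at an unadjusted p under 0.05. Fstl1, a secreted glycoprotein of the stroma that binds BMPs, was the brightest of them. Its signals were 19101, 18625, 19357 and 19398 in wild-type and 20245, 19230, 18554 and 20102 in Cox-1 KO uterus, for a log2 fold change of 0.03 (95% confidence interval -0.07 to 0.13). Tgfbi, a matrix protein named for its induction by TGF-beta, had signals of 6650, 6568, 7029 and 5866 in wild-type and 6367, 7681, 6799 and 7029 in Cox-1 KO uterus. This gave a log2 fold change of 0.09 (-0.07 to 0.26), and 0.21 with the yolk sac covariate (unadjusted p 0.0092). The other 3 were Bmp1, a metalloproteinase that processes procollagen and cleaves chordin (-0.07), Ltbp1, which anchors latent TGF-beta in the matrix (0.09), and Ltbp2, a related microfibril protein (0.13).

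All 3 antagonists measured, Fst, Fstl3 and Chrd, had estimates below 0, and none passed the test. Fst (follistatin), which binds activins, had signals of 7817, 10106, 10798 and 10306 in wild-type and 9484, 10413, 8764 and 9870 in Cox-1 KO uterus. This gave a log2 fold change of -0.01 (95% confidence interval -0.22 to 0.20), and the lowest and the highest array were both wild-type. Fstl3, which also binds activins, had signals of 1077, 1377, 1226 and 1356 in wild-type and 1045, 1132, 1102 and 1116 in Cox-1 KO uterus. The Cox-1 KO arrays lay at the low end of the wild-type range, with 1 below it, and the log2 fold change was -0.19 (-0.40 to 0.02, unadjusted p 0.07). Chrd (chordin), which sequesters BMPs, had signals of 773 to 824 in wild-type and 608 to 781 in Cox-1 KO uterus, a log2 fold change of -0.18 (-0.41 to 0.05).

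The lowest array for the activin subunits and follistatin was also the lowest for several marker lists. Wild-type replicate 1 was the lowest of the 8 arrays for Inhba, Inhbb and Fst, and also for Tgfb1, Tgfb3, Tgfbr2 and Acvr2a, 7 members in all. That number was similar on other arrays, with 7 members lowest on wild-type replicate 2 and 6 on each of Cox-1 KO replicates 1 and 3. Prl8a2, a decidual prolactin-family gene, had signals of 15065, 26846, 24395 and 23379 in wild-type and 20769, 38058, 20973 and 43884 in Cox-1 KO uterus. Cryab, expressed in decidua, was 14836 on wild-type replicate 1 and 18585 to 22875 on the other arrays. Tpbpa, a spongiotrophoblast gene, was 5604 on that array and 13103 to 18147 on the others. The other 2 markers measured in these lists had their lowest signal elsewhere, decidual Wnt4 on wild-type replicate 4 (448, against 526 on replicate 1) and trophoblast Psg17 on Cox-1 KO replicate 4 (19, against 67 on wild-type replicate 1). The summed signal of the 3 decidual markers measured, of 4 listed, was 30427 to 50391 in wild-type and 40282 to 64626 in Cox-1 KO uterus. Among them Wnt4 was at an unadjusted p under 0.05 in limma (log2 fold change 0.46, p 0.0216). With the yolk sac covariate it was 0.66 (unadjusted p 0.004). Prl8a2 had a log2 fold change of 0.41 (unadjusted p 0.129) and Cryab one of -0.01. The summed signal of the 2 trophoblast markers measured, of 6 listed, was 5671 to 18220 in wild-type and 13890 to 17474 in Cox-1 KO uterus. Wild-type replicate 1 had the lowest summed signal in 7 of the 10 marker lists. These were decidua, trophoblast, epithelium, smooth muscle, macrophages, yolk sac and fetal erythroid cells. It had the highest summed signal of the 8 arrays for stroma (50188) and endothelium (12677). By mean log2 signal, wild-type replicate 2 was the lowest for yolk sac (8.13, against 8.24 on replicate 1) and fetal erythroid cells (4.56, against 4.71). By that measure Cox-1 KO replicate 4 was the lowest for trophoblast. Of the decidual and trophoblast markers measured, Psg17 reached 100 signal units on 1 array and the others on all 8. The part of the lists in the activin and follistatin values was not tested.

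**Figure D3:**
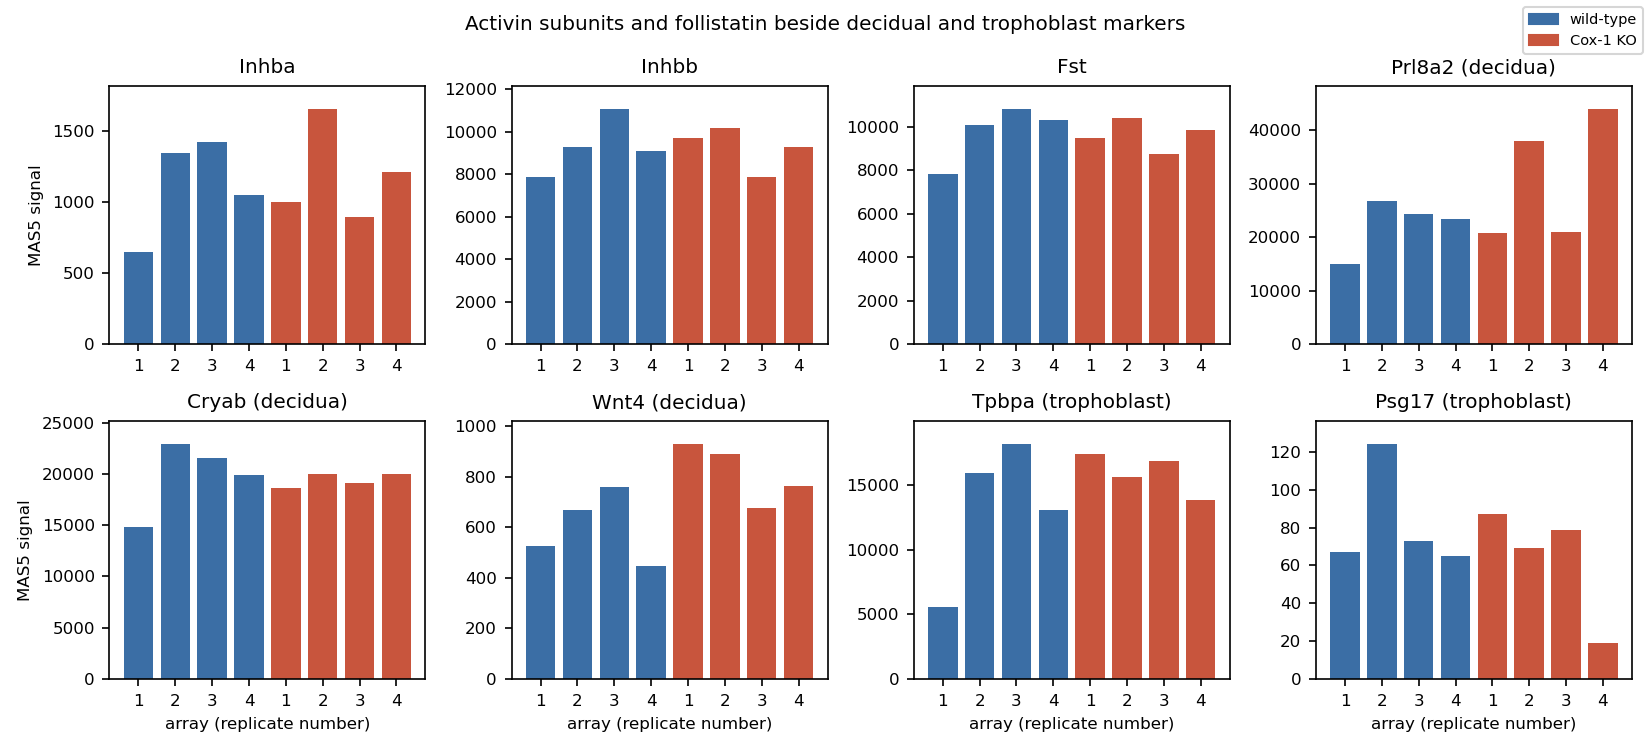
MAS5 signal of Inhba, Inhbb and Fst and of all 5 measured markers of decidua and trophoblast on each of the 8 arrays, with a bar per array coloured by genotype and its replicate number below. Wild-type replicate 1 has the lowest bar for Inhba, Inhbb, Fst, Prl8a2, Cryab and Tpbpa but not for Wnt4 and Psg17, and the genotypes overlap in each panel.

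The type I receptors held 2 of the 4 members at an unadjusted p under 0.05, in opposite directions. Tgfbr1, the type I receptor of TGF-beta, had signals of 3306, 3144, 3162 and 3364 in wild-type and 3758, 3592, 3556 and 3625 in Cox-1 KO uterus. Every Cox-1 KO array exceeded every wild-type array. Wild-type arrays averaged 3244 ± 108 and Cox-1 KO arrays 3633 ± 88.1 (SD, n = 4 each). The log2 fold change was 0.16 (SE 0.06, unadjusted p 0.0159, adjusted p 0.526 in limma). Its other 2 probe sets, with signals of 290 to 625, gave 0.10 and -0.09, and the mean of all 3 gave 0.06 (unadjusted p 0.63), so the difference rests on 1 probe set. Without the 4 arrays high in yolk sac markers the brightest gave 0.17, a value that rests on 1 Cox-1 KO array. With the marker level as a covariate it gave 0.13 (unadjusted p 0.0907 in limma).

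Acvrl1 (ALK1), a type I receptor of endothelium, had signals of 1621, 1671, 1914 and 1634 in wild-type and 1448, 1440, 1613 and 1396 in Cox-1 KO uterus. All Cox-1 KO arrays lay below all wild-type arrays, the nearest pair being 1613 and 1621. The log2 fold change was -0.21 (SE 0.08, unadjusted p 0.0275, adjusted p 0.538 in limma). The other Acvrl1 probe set gave 0.03, and the mean of both gave -0.09 (unadjusted p 0.339). Without the 4 arrays high in yolk sac markers the brightest gave -0.27, a value that rests on 1 Cox-1 KO array. With the marker level as a covariate it gave -0.21 (unadjusted p 0.0785 in limma). The 6 endothelial markers had a summed signal of 11437 to 12677 in wild-type and 10789 to 12209 in Cox-1 KO uterus, with 5 of 6 lower and 1, Pecam1, at an unadjusted p under 0.05 (log2 fold change -0.29, or -0.18 with unadjusted p 0.0551 under the yolk sac covariate). The part of the endothelial markers in the Acvrl1 values was not tested.

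The other 4 type I receptors had unadjusted p-values above 0.05. Acvr1b (ALK4), the activin type I receptor, was the brightest, with signals of 4321 to 5338 in wild-type and 4516 to 5805 in Cox-1 KO uterus and a log2 fold change of 0.09 (95% confidence interval -0.12 to 0.30). The other Acvr1b probe set, 1422098_at, with signals of 114 to 390, gave -0.58 (unadjusted p 0.0843 in limma). The BMP receptors Bmpr1a and Bmpr1b had log2 fold changes of -0.16 (-0.34 to 0.02) and -0.17 (-0.53 to 0.19). Acvr1 (ALK2), a BMP type I receptor, had one of -0.01 (-0.25 to 0.22).

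Type II receptors had estimates above 0 for 3 of 4, and none passed the test. Tgfbr2, the type II receptor of TGF-beta, had signals of 28923, 30112, 31749 and 30719 in wild-type and 30834, 31264, 30619 and 31452 in Cox-1 KO uterus. This gave a log2 fold change of 0.03 (95% confidence interval -0.06 to 0.13), the narrowest interval among the members. Acvr2a, an activin receptor, had signals of 1494, 1991, 1830 and 2085 in wild-type and 2178, 2047, 2130 and 2040 in Cox-1 KO uterus, a log2 fold change of 0.19 (-0.03 to 0.41). Of the wild-type arrays, 3 lay below the Cox-1 KO range. The other Acvr2a probe set, 1451004_at, gave -0.02. Bmpr2, the type II receptor of BMPs, had a log2 fold change of -0.04 (-0.17 to 0.08). Acvr2b, another activin receptor, had signals of 225, 8, 176 and 135 in wild-type and 232, 136, 225 and 210 in Cox-1 KO uterus. A single array, wild-type replicate 2, was far below the rest, and the log2 fold change was 1.28 (-0.63 to 3.19), or 0.17 without that array.

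The co-receptors Tgfbr3 and Eng had estimates on either side of 0. Tgfbr3 (betaglycan), which presents TGF-beta 2 and inhibin to their receptors, had signals of 24582, 24852, 24841 and 21942 in wild-type and 22607, 25701, 23122 and 23512 in Cox-1 KO uterus. This gave a log2 fold change of -0.02 (95% confidence interval -0.15 to 0.11). Its other probe set, 1425620_at, gave a different value: 5802, 5516, 4934 and 4851 in wild-type and 4422, 4361, 4617 and 4110 in Cox-1 KO uterus, with a log2 fold change of -0.27 (unadjusted p 0.0036, adjusted p 0.416 in limma). On that probe set all Cox-1 KO arrays lay below all wild-type arrays. Eng (endoglin), an endothelial co-receptor, had signals of 3165, 3529, 2845 and 2366 in wild-type and 3748, 3029, 2938 and 3627 in Cox-1 KO uterus, a log2 fold change of 0.17 (-0.10 to 0.45), with overlap of the genotypes. The other Eng probe set, 1432176_a_at, gave -0.11.

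The Smad signal transducers had estimates below 0 for 4 of 5 and none at an unadjusted p under 0.05. Smad3, which carries TGF-beta and activin signals, had signals of 2440, 2630, 2634 and 2242 in wild-type and 2172, 2534, 1880 and 2053 in Cox-1 KO uterus. Of the Cox-1 KO arrays, 3 lay below the wild-type range, and the log2 fold change was -0.21 (95% confidence interval -0.42 to 0.01, unadjusted p 0.0559). With the yolk sac marker level as a covariate it was -0.06. Smad4, the partner of all receptor Smads, had signals of 6929 to 7736 in wild-type and 7393 to 8036 in Cox-1 KO uterus, a log2 fold change of 0.06 (-0.06 to 0.18), while its probe set 1422485_at gave -0.24 (unadjusted p 0.0251). Smad1, Smad2 and Smad5 had log2 fold changes of -0.07, -0.09 and -0.04.

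Both inhibitory Smads had wide intervals around 0. Smad6, which blocks BMP signals, had signals of 436, 668, 437 and 837 in wild-type and 564, 617, 407 and 554 in Cox-1 KO uterus, a log2 fold change of -0.11 (95% confidence interval -0.59 to 0.37). Smad7, which blocks TGF-beta as well as BMP signals, had signals of 386, 691, 433 and 481 in wild-type and 585, 351, 462 and 512 in Cox-1 KO uterus, a log2 fold change of -0.05 (-0.495 to 0.40). The wild-type arrays spanned most of the range of each.

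The Id genes encode inhibitors of basic helix-loop-helix transcription factors. Of the 3 members, Id2 was at an unadjusted p under 0.05 and Id1 and Id3 were not. Id2 had signals of 5172, 4061, 4903 and 5069 in wild-type and 5279, 5616, 5544 and 6711 in Cox-1 KO uterus. Every Cox-1 KO array exceeded every wild-type array, the nearest pair being 5279 and 5172. Wild-type arrays averaged 4801 ± 506 and Cox-1 KO arrays 5788 ± 632 (SD, n = 4 each). The log2 fold change was 0.27 (SE 0.09, 95% confidence interval 0.06 to 0.48), with an unadjusted p of 0.0158 and an adjusted p of 0.526 in limma.

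The other Id2 probe sets had estimates in the same direction, and on 1 of them, 1453596_at, the Cox-1 KO arrays again exceeded the wild-type arrays, as on 1.5% of all probe sets. On 1422537_a_at the signals were 2461, 2047, 2782 and 2471 in wild-type and 2784, 2925, 2665 and 3387 in Cox-1 KO uterus, with a log2 fold change of 0.27 (unadjusted p 0.0243). On 1453596_at they were 168, 193, 186 and 119 in wild-type and 244, 197, 216 and 196 in Cox-1 KO uterus, with a log2 fold change of 0.38 (unadjusted p 0.102). The mean of the 3 gave 0.31 (unadjusted p 0.0027, adjusted p 0.348 in limma). Without the 4 arrays high in yolk sac markers the brightest probe set gave 0.26, and with the marker level as a covariate 0.22 (unadjusted p 0.072).

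Id1 had signals of 2837, 3168, 3293 and 3408 in wild-type and 4242, 2619, 2822 and 3420 in Cox-1 KO uterus, a log2 fold change of 0.02 (95% confidence interval -0.27 to 0.32). Id3 had signals of 2491, 2470, 2986 and 3296 in wild-type and 2337, 2652, 2493 and 3299 in Cox-1 KO uterus, a log2 fold change of -0.06 (-0.33 to 0.21). The genotypes overlapped for both.

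**Figure D4:**
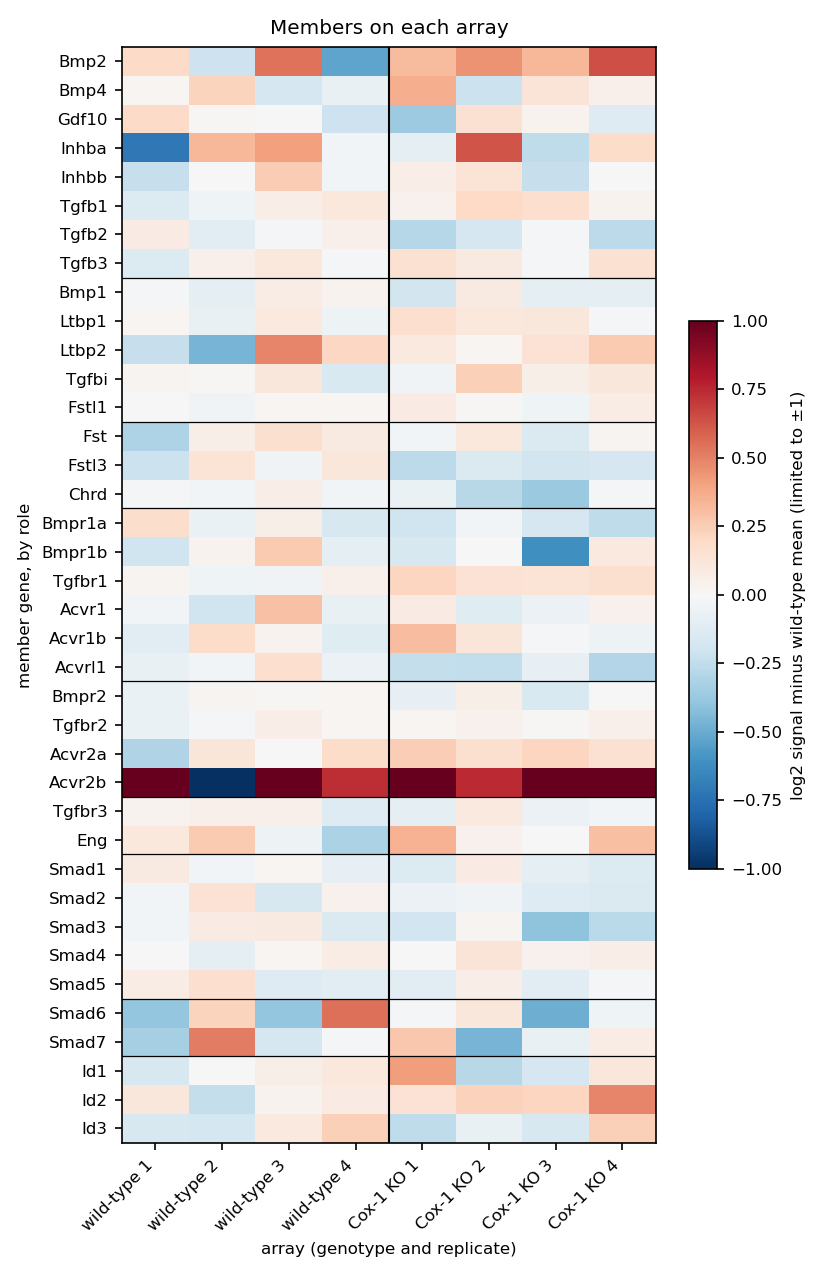
Log2 signal of each member on each array minus the mean of its 4 wild-type arrays, in rows grouped by role, with colours limited to 1 in either direction. The Acvr2b row shows mainly the low wild-type replicate 2 (signal 8), Tgfbr1 and Id2 are above 0 on all Cox-1 KO arrays, and Tgfb2 is lowest on Cox-1 KO replicates 1 and 4.

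Over the members, wild-type replicate 3 and Cox-1 KO replicate 1 each held the highest signal of the 8 arrays for 9, and Cox-1 KO replicate 3 for 0. Wild-type replicates 1 and 2 each held the lowest for 7.

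Probe sets of the same member often had estimates on both sides of 0. Some of these lay close to 0, such as -0.01 and 0.06 for Inhbb, and differences between probe sets were not tested. Among 24 members with several tested probe sets, 9 had all estimates on 1 side of 0, namely Bmp1, Bmpr1a, Bmpr2, Fstl1, Id2, Smad1, Smad5, Tgfb2 and Tgfbr3. Tgfb2 was the 1 member with every probe set at an unadjusted p under 0.05. Of 38 tested probe sets other than the brightest, 8 (21.1%) were at an unadjusted p under 0.05, against 8.81% of all probe sets, and 3 of the 8 belong to Tgfb2. The remaining 5 were single probe sets of Id2, Tgfbr3, Smad4, Bmpr1a (log2 fold change -0.24) and Tgfbi (0.18). None passed an adjusted p of 0.05, the lowest being 0.154.

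**Figure D5:**
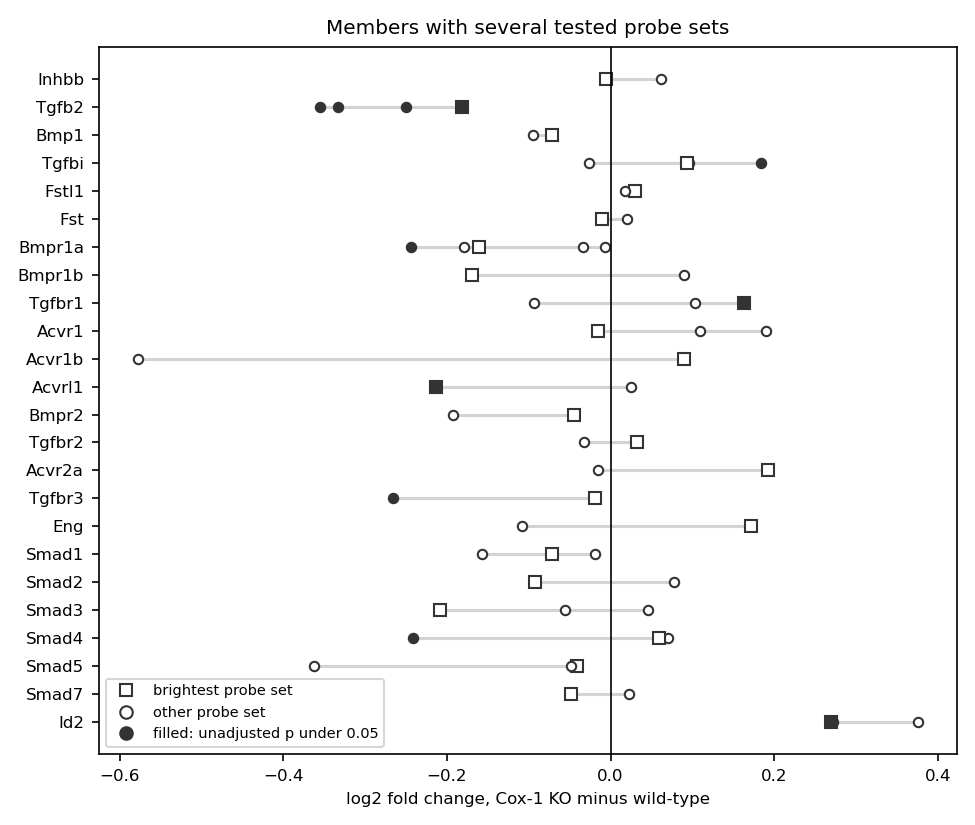
Log2 fold change, Cox-1 KO minus wild-type, of every tested probe set of the 24 members with several, with squares for the brightest and circles for the others, filled at an unadjusted p under 0.05. Tgfb2 has all 4 of its marks filled and below 0, while 15 members have marks on both sides of 0.

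Other genes of the pathway, 75 in a second list, gave 48 tested genes, and none passed an adjusted p of 0.05, the lowest being 0.489. At an unadjusted p under 0.05 there were 6 (12.5%, against 9.22% of all genes), 1 higher and 5 lower, and the methods' t-test gave 4. The median log2 fold change of the 48 was -0.01. The higher gene was Rgmb, a BMP co-receptor, with signals of 726, 679, 671 and 664 in wild-type and 885, 822, 729 and 846 in Cox-1 KO uterus and the log2 fold change was 0.26 (adjusted p 0.531 in limma). Its genotypes did not overlap. That was so for 3 of the 48 genes, Rgmb, Id4 and Tgfb1i1, and for 4.34% of all genes (1.83% higher and 2.51% lower in Cox-1 KO uterus).

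Id4, the remaining Id gene, had signals of 5851, 5418, 6206 and 5213 in wild-type and 4403, 5099, 4768 and 4970 in Cox-1 KO uterus. All Cox-1 KO arrays lay below all wild-type arrays, the opposite side from Id2, and the log2 fold change was -0.24 (SE 0.07, unadjusted p 0.0075, adjusted p 0.489 in limma). It was -0.15 (unadjusted p 0.0784) with the yolk sac covariate and -0.19 without the 4 arrays. Tgfb1i1 (Hic-5), a focal adhesion protein induced by TGF-beta, had signals of 10384, 10155, 10940 and 10342 in wild-type and 9732, 9733, 9017 and 8367 in Cox-1 KO uterus, also without overlap, and the log2 fold change was -0.18 (adjusted p 0.517). Rgma, a BMP co-receptor related to Rgmb, had a log2 fold change of -0.35, and Itgb8, an integrin subunit that activates latent TGF-beta, one of -0.21. These values without the 4 arrays high in yolk sac markers were -0.05 for Rgma and -0.04 for Itgb8, and -0.11 for Tgfb1i1. Gdf5, a ligand, had signals of 26 to 157 that reached 100 on 4 of 8 arrays, and a log2 fold change of -1.21, or -0.22 (unadjusted p 0.322) with signals under 100 set to 100. With the yolk sac marker level as a covariate, 2 of the 48 genes were at an unadjusted p under 0.05. Without wild-type replicate 4 there were 10.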

How the data were processed

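RNA of 8 gravid d18.0 uteri was hybridized to Affymetrix mouse 430 2.0 arrays, 1 uterus per array. The authors computed the deposited values, signal intensity on a linear scale, with Affymetrix MAS5, bringing the average of every array to 1000. The table held 28000 probe sets with no detection calls, and how they were chosen is not given in the sources used here. MAS5 signals of dim probe sets vary widely between arrays, as on Acvr2b. GEO's platform annotation gave 23579 probe sets 1 gene symbol, 653 several and 3768 none; the Ptgs1 probe set was named through the study's additional file.

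Signals under 1 (1 value) were set to 1 and taken to log2, 60 array controls were left out, and 26444 probe sets that reached 100 signal units on 4 arrays or more were fitted with limma 3.58.1 in R 4.3.3 (lmFit, eBayes with a trend), with Benjamini-Hochberg adjustment over all of them. Intervals are 95% limma intervals. The methods' t-test (unequal variances, log2 signal) was run on the same values. Tables were made with Python 3.11.15. The fit was run on simulated data with planted changes of 1.5-fold or more, so it was not tested on smaller changes. The array correlations ran from 0.944 to 0.982.

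The members, lists and tests were chosen with earlier results of these data known. Named genes were Ptgs1, members at an unadjusted p under 0.05 or without overlap, the brightest member and the one with the smallest p in each role group, Fst, and members whose arrays differed by 3 times or more; the text gives the other members too. Alternatives changed the pseudocount, floor, filter, normalization, variance model, weights, block, covariate, probe set choice and arrays used. The Northern blots, in situ hybridization and other gestational days of the study were not analysed here.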

Additional observations from a re-analysis of the deposited data

Results flagged for a closer look

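Groups of 4 arrays in which the highest or lowest array stood apart were sought with Dixon's ratio, the gap to the nearest array divided by the range, with its 95% critical value for 4 values. Chance gives about 1 in 20 groups, and 3 of 88 groups were found. For Acvrl1 in wild-type uterus, replicate 3 was the highest, at 1914 against 1671 for the nearest array and 1621 for the lowest, with a ratio of 0.8294. For Bmpr2 in wild-type uterus, replicate 1 was the lowest, at 7138 against 7544 for the nearest array and 7622 for the highest, with a ratio of 0.839. For Tgfbr3 in wild-type uterus, replicate 4 was the lowest, at 21942 against 24582 for the nearest array and 24852 for the highest, with a ratio of 0.907.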

How the results depend on the processing

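No member passed an adjusted p of 0.05 under any alternative run. The number at an unadjusted p under 0.05 was 4, ran from 1 to 6 as each array was left out (2 without Cox-1 KO replicate 1, 1 without Cox-1 KO replicate 4), and was 0 without the 4 arrays high in yolk sac markers, an alternative chosen after seeing the data that sets 3 wild-type arrays against 1 Cox-1 KO array, the lone array being assumed to vary like the others; with fewer arrays, fewer calls can be made. The other alternatives gave 3 to 6. The median log2 fold change of the members ran from -0.0201 to 0.0383 as each array was left out and was 0.0587 without the 4 arrays. Other pathway genes at an unadjusted p under 0.05 were 6 and ran from 4 to 10 as each array was left out (10 without wild-type replicate 4), with 2 under the yolk sac covariate and 2 without the 4 arrays; the cause was not tested. With replicate number as a block, 4 members and 5 other pathway genes were at an unadjusted p under 0.05 and none at an adjusted one. Deviations of same-numbered arrays correlated at -0.25, 0.22, -0.18 and 0.17, and 1 of 4 numbers had its best partner in its own number. These values show no pairing by number but cannot exclude shared handling. The methods state that samples were processed in parallel in balanced groups, without naming the arrays of each. As each array was left out, the brightest Tgfb2 probe set had unadjusted p-values from 0.0033 to 0.0626 (above 0.05 without wild-type replicates 1 or 4 and Cox-1 KO replicates 1 or 4), Acvrl1 from 0.0156 to 0.0904 (wild-type replicate 3 and Cox-1 KO replicates 1, 2 or 4), Id2 from 0.0108 to 0.0514 (Cox-1 KO replicate 4) and Tgfbr1 from 0.0183 to 0.0425. Signs turned for members with an unadjusted p above 0.05. Fst was 0.00129 under median centring, ran from -0.113 to 0.0421 as each array was left out (0.0342 without Cox-1 KO replicate 3, and 0.0102 and 0.0196 without wild-type replicates 2 and 4), and was 0.135 without the 4 arrays and 0.00504 as the mean of its probe sets. Smad6 ran from -0.24 to 0.0734 as each array was left out (0.016 without Cox-1 KO replicate 3) and was 0.295 without the 4 arrays. Tgfbr3 ran from -0.0626 to 0.00382 as each array was left out and was 0.0813 under the covariate and 0.0539 without the 4 arrays. Tgfbr2 was -0.031 under quantile normalization and -0.000374 as the mean of its probe sets, Acvr1b -0.244 and Smad4 -0.0376 as such means, Fstl1 -0.00121 under quantile normalization, and Eng -0.0645 without the 4 arrays.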
